A study of Mus musculus with 4 samples.

Results

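The Ikaros family is a group of 5 zinc finger transcription factors, and the transcripts of all 5 of its genes were followed through the thymocytes of a mouse model of T-cell acute lymphoblastic leukemia (T-ALL). The members were taken by symbol, as Ikzf1 (Ikaros), Ikzf2 (Helios), Ikzf3 (Aiolos), Ikzf4 (Eos) and Ikzf5 (Pegasus), which are 5 of the 31053 genes in the count matrices. Each was found under 1 gene identifier, so no member was lost, and each was detected in every library.

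Ikaros factors bind DNA through zinc fingers near the start of the protein and pair with each other through zinc fingers at its end. They recruit chromatin complexes such as NuRD, Sin3 and CtBP and restrain or maintain genes as lymphocytes mature. In the thymus, Ikaros is needed for orderly passage through the double-negative and double-positive stages and keeps Notch target genes in check, Aiolos appears as cells leave the double-negative stage, Helios and Eos are known from regulatory T cells and strongly signalled cells, and Pegasus is the most distant relative. Loss of Ikaros function is a recurrent event in mouse T-cell leukemia.

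The 4 libraries were made by droplet 3′ sequencing of viable (7-AAD negative) thymus singlets from FVB/N mice after lysis of red cells. WT was 1 wild type animal of 6 weeks, labelled male. The preleukemic library was from 1 Tal1/Lmo2 transgenic animal of 6 weeks, also labelled male. The leukemic group held 2 Tal1/Lmo2 animals of 3 months with thymic leukemia, T-ALL#1, labelled female, and T-ALL#2, labelled male. Both transgenes are driven by the proximal Lck promoter, and the WT animal carries neither. Age and disease moved together between the preleukemic and leukemic animals and cannot be told apart.

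Cells with more than 500 genes and under 10% mitochondrial UMIs (unique molecular identifiers, each a counted transcript molecule) were kept, which left 4220 WT, 5576 preleukemic, 5773 T-ALL#1 and 1975 T-ALL#2 cells. Depth differed widely, with a median of 3800.5 UMIs per cell in WT, 4888 in the preleukemic thymus, 8742 in T-ALL#1 and 17581 in T-ALL#2. Pairs of libraries shared 0 to 9 cell barcodes. Tal1, the transgene product, was absent from WT at 0 CPM (summed UMIs scaled to a total of 1000000) and reached 68.3 to 409.6 CPM in the 3 transgenic libraries, while Lmo2 was counted at 4.48 CPM or less in all 4. In the libraries labelled male as WT and preleukemic, the X-inactivation transcript Xist stood at 1380 and 1869 CPM with no UMI of the Y-linked Ddx3y, which goes against the sex on both labels. The preleukemic library had summed gamma-delta T-cell markers (5 of 5 detected) at 1707 CPM against 94.7 to 275.1 CPM in the others, and 81.8% of its cells held a UMI of Trdc. A Trdc UMI was also held by 1365 of the 1975 T-ALL#2 cells, 625 WT cells and 24 T-ALL#1 cells. Myeloid and erythroid markers summed to 237.0 and 90.3 CPM in WT and to under 4 CPM in every other library.

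Cells were also sorted into 5 gates by whether a UMI of Cd4, Cd8a or Il2ra was seen. A gate is a detection class and not a stage, and its makeup changed between libraries. Without Il2ra, which sets the gate, the other 7 markers of the DN3 stage summed to 958.6 CPM in the Il2ra+ Cd4- Cd8a- gate of WT but to 159.2 CPM in that of the preleukemic thymus. In T-ALL#1 these 7 were higher in the Cd4+ Cd8a+ gate (1250.5 CPM) than in the Il2ra+ Cd4- Cd8a- gate (602.7 CPM). Rag1 is among these 7 and is also counted as a marker of the double-positive stage. A cell was called cycling where S and G2/M genes (43 and 54 genes) took more than 81.2 of 10000 UMIs, which held for 14.9% of WT, 20.5% of preleukemic, 38.4% of T-ALL#1 and 39.4% of T-ALL#2 cells.

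The 5 genes lie on 4 chromosomes of the GRCm38 assembly (GENCODE M21 annotation), and all are protein coding. Ikzf1 (ENSMUSG00000018654) spans chr11:11685003-11772926 on the plus strand. Ikzf2 (ENSMUSG00000025997) spans chr1:69531214-69687245, Ikzf3 (ENSMUSG00000018168) chr11:98464902-98546031, Ikzf4 (ENSMUSG00000002578) chr10:128630843-128645991 and Ikzf5 (ENSMUSG00000040167) chr7:131388652-131410521, all on the minus strand. Ikzf5 overlaps the annotated Fgfr2 locus on its own strand, so the split of UMIs between those genes is uncertain. Since 3′ counting reads the end of a transcript, values were compared between cells for each gene and not between genes, and 3′ counts cannot show which Ikaros isoform a cell made.

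The first question was how the level of each member differed between the WT, preleukemic and leukemic animals. Across the 4 libraries, Ikzf2 was at its highest and Ikzf3 at its lowest in the preleukemic thymus, and the Ikzf3 levels of the leukemias lay on either side of the WT level. Ikzf4 was lower in every transgenic library than in WT, and Ikzf1 and Ikzf5 differed from WT by at most 1.36-fold and 1.33-fold. WT and the preleukemic group had 1 animal each, so these values are a description with no test between groups, and their intervals (95%, exact Poisson) cover counting error only.

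The Ikzf2 level was 180.2 CPM (175 to 186) in WT and 820.1 CPM (811 to 829) in the preleukemic thymus. T-ALL#2 had 268.5 CPM and T-ALL#1 338.9 CPM. The leukemic mean was 303.7 ± 49.8 CPM (SD, n = 2), which placed WT below and the preleukemic animal above both leukemic animals. The preleukemic level exceeded WT by 4.55-fold (interval 4.41 to 4.70), that of T-ALL#1 by 2.42-fold and that of T-ALL#2 by 3.05-fold. On cells thinned to 2000 UMIs, 16.5% of WT, 72.9% of preleukemic, 41.1% of T-ALL#1 and 42.3% of T-ALL#2 cells held a UMI of Ikzf2, against 24.9%, 89.9%, 75.3% and 93.2% at full depth. The leukemias changed order between the thinned share and the CPM, so no order is read between them. A UMI of the myeloid gene Lyz2, whose lineage should hold little Helios, is not a proof of a myeloid cell. Of the cells with such a UMI, 12 of 37 in WT (32.4%) and 4 of 11 in the preleukemic thymus (36.4%) held an Ikzf2 UMI. Their median depths were 7266 and 3249 UMIs. Once thinned, 4 of the 32 WT Lyz2-detected cells that reached 2000 UMIs (12.5%) held one, against 16.5% of all WT cells of that depth. The Ikzf2 level of all 37 was 57.7 CPM, against 180.2 CPM over all WT cells. The preleukemic Lyz2-detected cells had 247.2 CPM and a thinned share of 37.5%. In the leukemias, 13 of 16 such cells of T-ALL#1 and 13 of 14 of T-ALL#2 held one, or 33.3% and 21.4% once thinned. Lyz2 had only 63 UMIs in T-ALL#1 and 34 in T-ALL#2, and the myeloid genes S100a8 and S100a9 had 0 in both. These leukemic cells may not be myeloid and cannot serve as a control. The full-depth leukemic shares are not read as shares of expressing cells. Droplets of T-ALL#2 with at most 100 UMIs held Ikzf2 at 195.6 CPM (176 to 217), so its free RNA was present.

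Ikzf3 ran the other way. It was counted at 98.5 CPM (94.6 to 103) in WT and 21.2 CPM (19.8 to 22.7) in the preleukemic thymus. T-ALL#2 had 65.0 CPM and T-ALL#1 108.7 CPM, with a leukemic mean of 86.9 ± 30.9 CPM (SD, n = 2) that takes in the WT value within 1 SD. The preleukemic level was 4.65-fold below WT. T-ALL#1 exceeded the preleukemic level by 5.13-fold and T-ALL#2 by 3.07-fold. With each cell given equal weight, the preleukemic level was 9.31-fold below WT, the ratio of T-ALL#1 to WT turned from 1.10 to 0.878, and T-ALL#2 was 2.08-fold below WT in place of 1.52-fold. The thinned share of cells with a UMI was 19.0% in WT and 3.23% in the preleukemic thymus, with T-ALL#1 at 23.1% and T-ALL#2 at 13.4%. The T-ALL#2 matrix holds every barcode, and Ikzf3 reached 79.3 CPM (66.9 to 93.4) in its droplets with at most 100 UMIs, no lower than the 65.0 CPM of its cells, so free RNA of this gene was present in that suspension.

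**Figure D1:**
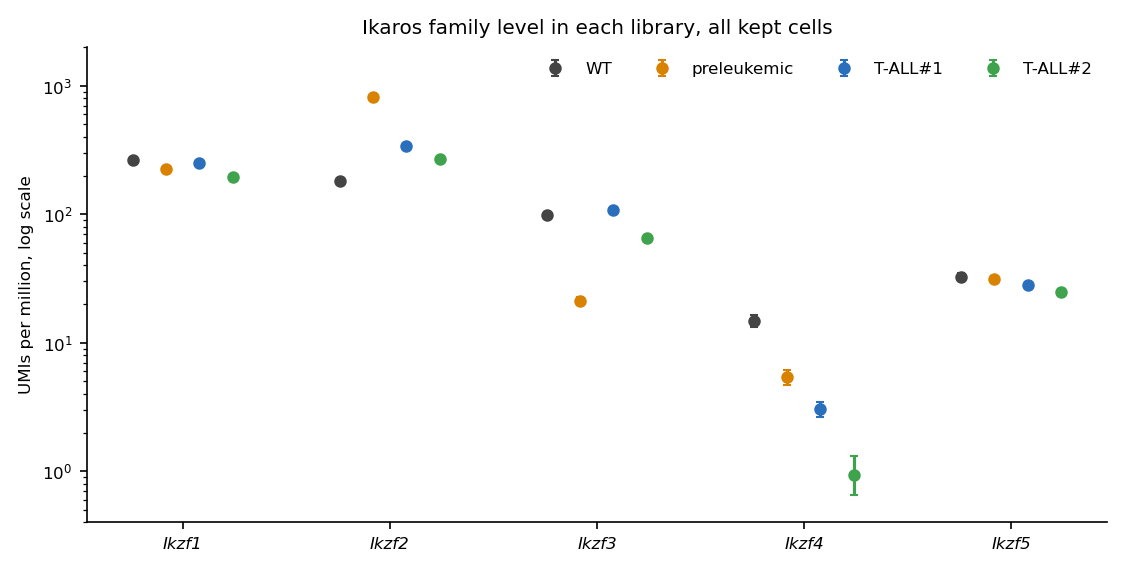
Level of each Ikaros family gene in CPM (log axis) over all kept cells of the 4 libraries, with 1 point per library and bars for the exact Poisson 95% interval. Ikzf2 was highest and Ikzf3 lowest in the preleukemic thymus (820.1 and 21.2 CPM), and Ikzf4 fell from 14.8 CPM in WT to 0.938 CPM in T-ALL#2.

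Ikzf4 went from 14.8 CPM in WT to 5.41 CPM in the preleukemic thymus, with T-ALL#1 at 3.04 CPM and T-ALL#2 at 0.938 CPM. The 3 transgenic libraries lay 2.73-fold, 4.86-fold and 15.7-fold below WT, and the leukemic animals differed from each other by 3.24-fold. With each cell given equal weight the preleukemic level was 1.83-fold below WT, under the 2-fold mark. The T-ALL#2 value rests on 34 UMIs, and its empty droplets held Ikzf4 at 1.65 CPM (0.341 to 4.83), so cells and free RNA could not be told apart for this gene.

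Ikzf1 lay between 195.1 CPM in T-ALL#2 and 265.8 CPM in WT, with 226.8 CPM in the preleukemic thymus and 249.7 CPM in T-ALL#1. Ikzf5 lay between 24.7 CPM in T-ALL#2 and 32.7 CPM in WT, with 31.1 and 28.4 CPM in the preleukemic thymus and T-ALL#1. Neither gene moved 2-fold between any pair compared, and with TMM scaling, whose factors stand at -0.55 (T-ALL#2) and -0.31 (T-ALL#1) log2 units from that of WT and so raise the leukemic levels, the direction of Ikzf1 turned for both leukemias against WT and for T-ALL#2 against the preleukemic thymus. Ikzf5 turned for all 4 ratios that involve a leukemic animal. No direction is therefore given for these genes.

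At the 2-fold mark, 3 of 5 members differed between the preleukemic and WT libraries, 1 upward and 2 downward, against a background of 19.6% of 13428 genes (9.58% higher, 9.99% lower). From the preleukemic thymus to T-ALL#1, 1 member was higher and 1 lower (background 30.3%, with 9.2% higher and 21.1% lower), and to T-ALL#2, 1 was higher and 2 lower (background 41.7%, with 8.6% higher and 33.1% lower). Against WT, only Ikzf4 of the 5 differed, downward, in T-ALL#1 (background 30.3%, with 9.31% higher and 21% lower) as in T-ALL#2 (background 44.5%, with 9.92% higher and 34.6% lower). With TMM scaling Ikzf2 also passed 2-fold against WT, at 2.18-fold (T-ALL#2) and 2.33-fold (T-ALL#1). In non-cycling cells alone, Ikzf2 in T-ALL#1 passed 2-fold too, at 497.1 CPM against 245.2 CPM in WT. T-ALL#2 had 377.2 CPM there and did not pass. The comparisons share libraries, so their counts are not independent.

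The next question was whether these differences held within gates. Ikzf2 was higher in the preleukemic thymus than in WT in 5 of 5 gates, by 2.08-fold to 4.03-fold, with every interval above 1. The highest value was 1129 CPM in the Il2ra- Cd4- Cd8a- gate of the preleukemic thymus, which held 3520 of its 5576 cells, against 357.3 CPM in WT, 286.9 CPM in T-ALL#2 and 474.0 CPM in T-ALL#1. Among cells with a UMI of Trdc, which is not a proof of a gamma-delta T cell, Ikzf2 stood at 817.3 CPM in the preleukemic thymus and 82.9 CPM in WT. T-ALL#2 had 267.7 CPM in 1365 such cells, and T-ALL#1 had 572.3 CPM in 24. In the non-cycling cells of each gate the preleukemic level was 2.25-fold to 4.50-fold above WT.

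Ikzf3 was lower in the preleukemic thymus than in WT in 5 of 5 gates, by 1.81-fold to 6.95-fold. In the Il2ra+ Cd4- Cd8a- gate, Ikzf3 was 21.9 CPM in WT and 12.1 CPM in the preleukemic thymus, but 59.5 CPM in T-ALL#2 and 96.4 CPM in T-ALL#1. That WT value rests on 17 UMIs in 54 cells. Among the Lyz2-detected cells, 4 of 37 in WT (10.8%, exact interval 3.03 to 25.4) held an Ikzf3 UMI, below the 36.1% of all WT cells. In the preleukemic thymus 0 of 11 such cells held one (upper bound 28.5%), and that bound lies above the 10.8% of all its cells. T-ALL#1 had 11 of 16 such cells with one and T-ALL#2 had 6 of 14, against 62.5% and 62.0% of all their cells. A Lyz2 UMI is not a proof of a myeloid cell, so these cells cannot serve as a control. The leukemic shares are not read as shares of expressing cells.

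**Figure D2:**
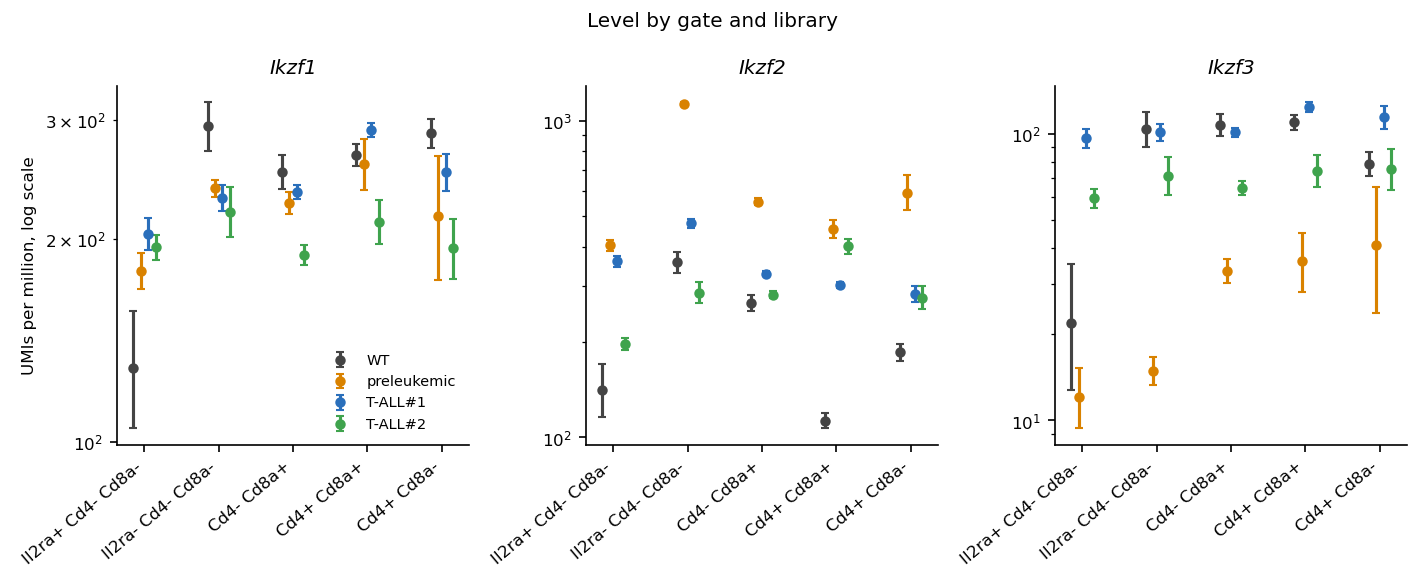
Level of Ikzf1, Ikzf2 and Ikzf3 in CPM (log axes, different ranges) in 5 gates set by detection of Il2ra, Cd4 and Cd8a, with 1 point per library and gate and bars for the exact Poisson 95% interval. The preleukemic points are the highest for Ikzf2 and the lowest for Ikzf3 in every gate, and the WT Il2ra+ Cd4- Cd8a- gate stands low for Ikzf1 (128.7 CPM) and Ikzf3 (21.9 CPM).

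For Ikzf1, Ikzf2 and Ikzf3, the WT gates spanned a wider range than the leukemic gates. Ikzf3 ranged 5.01-fold over the 5 gates of WT and 3.39-fold over those of the preleukemic thymus, but over the leukemic gates it ranged 1.26-fold (T-ALL#2) and 1.29-fold (T-ALL#1). Ikzf1 ranged 2.28-fold in WT, while the T-ALL#1 gates spanned 1.42-fold and those of T-ALL#2 1.16-fold. For Ikzf1 and Ikzf3 the width in WT came from its Il2ra+ Cd4- Cd8a- gate of 54 cells, at 128.7 and 21.9 CPM. The other WT gates lay at 251.1 to 293.5 CPM for Ikzf1 and at 78.5 to 109.5 CPM for Ikzf3. Ikzf4 in WT was highest in the Il2ra+ Cd4- Cd8a- gate at 47.6 CPM and lowest in the Cd4+ Cd8a+ gate at 5.79 CPM. In cells with a UMI of Foxp3, the regulatory T-cell factor, Ikzf4 reached 141.1 CPM and Ikzf2 1241 CPM in 49 WT cells. The 15 Foxp3-detected preleukemic cells had Ikzf2 at 1146 CPM, near that library's level in its Il2ra- Cd4- Cd8a- gate, and the leukemic libraries held 3 and 2 such cells.

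The comparison with the firmest result was that of cycling with non-cycling cells, tested over 4 animals with each animal as its own control (edgeR quasi-likelihood test, Benjamini-Hochberg adjustment over all genes). Ikzf2 was lower in cycling cells of every animal. Its level in non-cycling and cycling cells was 245.2 and 73.2 CPM in WT, 1137 and 369.3 CPM in the preleukemic thymus, 377.2 and 179.2 CPM in T-ALL#2, and 497.1 and 258.7 CPM in T-ALL#1. The difference was -1.19 on the log2 scale (SE 0.149, adjusted p = 0.00111), and the fall was 3.35-fold in WT, 3.08-fold in the preleukemic thymus, 2.11-fold (T-ALL#2) and 1.92-fold (T-ALL#1) in the leukemias. The thinned share of cells with an Ikzf2 UMI was lower in cycling cells of each library too, at 10.5% against 17.7% in WT and 28.0% against 51.7% in T-ALL#2. At full depth the share was higher in cycling cells of WT (37.0% against 22.8%), the preleukemic thymus (92.6% against 89.2%) and T-ALL#1 (89.2% against 66.6%). In T-ALL#2 it was 92.4% against 93.6%. The fall in CPM is relative to the UMI total, and cycling cells held more UMIs. Whether the leukemic animals differed from the others was tested as an interaction, which gave 0.51 (SE 0.201, adjusted p = 0.382), with 0 of 11646 genes called and 1403 at an unadjusted p under 0.05.

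Ikzf1 fell in cycling cells by 0.34 on the log2 scale (SE 0.105, adjusted p = 0.0300), from 304.1 to 202.9 CPM in WT and from 220.1 to 174.6 CPM in T-ALL#2, with the preleukemic thymus and T-ALL#1 in the same direction. Ikzf4 fell by 1.13 (SE 0.364, adjusted p = 0.0345), from 21.8 to 3.19 CPM in WT, where the change was largest. Both calls depended on single animals and on settings. That of Ikzf1 was lost without WT (adjusted p = 0.0964), without the preleukemic animal (0.0559) and without T-ALL#1 (0.171). That of Ikzf4 was lost without WT (-0.59, adjusted p = 0.0633), without the preleukemic animal (0.0714) and without T-ALL#2 (0.0631). When a cell was called cycling by a UMI of Mki67 or Top2a, neither was called (adjusted p = 0.0716 for Ikzf1 and 0.0511 for Ikzf4). Ikzf4 was also lost with mitochondrial UMIs under 5% (adjusted p = 0.0619), and Ikzf1 with every gene of at least 1 UMI (0.0555). Ikzf5, at -0.14 (SE 0.0956, adjusted p = 0.259), was not called, although all 4 animals were lower in cycling cells. The 3 members that fell stand against a background of 29.8% of 11646 genes called lower, 24.5% called higher and 54.3% in either direction. Cycling cells were deeper in every library, with a median of 12018 against 3417.5 UMIs in WT. The part of depth was not tested beyond the thinned shares. Regulatory, NKT and innate-like, and mature T-cell markers moved as Ikzf2 did, lower in cycling than in non-cycling cells of all 4 libraries. The 4 regulatory T-cell markers summed to 36.5 against 150.4 CPM in WT and 20.1 against 29.2 CPM in T-ALL#2, the 5 NKT and innate-like markers to 17.1 against 115.8 CPM and 2.92 against 8.14 CPM, and the 5 mature T-cell markers to 233.1 against 696.6 CPM and 172.0 against 291.9 CPM. The 5 gamma-delta markers went the other way in WT, at 455.5 CPM in cycling against 149.9 CPM in non-cycling cells. They were lower in cycling cells of the preleukemic thymus (1343 against 1963 CPM), T-ALL#2 (235.1 against 323.8 CPM) and T-ALL#1 (81.5 against 120.6 CPM). Il2rb is on both the regulatory and the NKT and innate-like list, so those sums are not independent. Foxp3 had only 4 UMIs in T-ALL#1 and 2 in T-ALL#2, so the leukemic regulatory sums come from the other genes of that list. The part of these marker lists in the differences was not tested.

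Ikzf3 differed between animals in this comparison. It was lower in cycling cells of WT (63.7 against 119.7 CPM), T-ALL#2 (53.0 against 79.7 CPM) and T-ALL#1 (85.1 against 155.2 CPM), but higher in those of the preleukemic thymus (24.8 against 18.6 CPM). Over all 4 animals the difference was -0.36 (SE 0.241, adjusted p = 0.248), and without the preleukemic animal it was -0.62 (adjusted p = 0.00787). The preleukemic rise in cycling cells was also seen in the thinned share of cells with a UMI, at 5.02% against 2.76%.

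Restricting the comparison to the Il2ra+ Cd4- Cd8a- gate left the Ikzf2 difference in place. Ikzf2 was 242.4 CPM in non-cycling and 34.5 CPM in cycling WT cells, 665.5 and 193.7 CPM in the preleukemic thymus, 280.4 and 147.9 CPM in T-ALL#2, and 631.1 and 264.4 CPM in T-ALL#1. The 4 animals moved the same way, at -1.43 on the log2 scale (SE 0.208, adjusted p = 0.000466; background 17% of 9279 genes called lower and 33.2% in either direction). Each of the 4 fits that left out an animal called Ikzf2, with adjusted p up to 0.00938. The WT side rests on 12 cycling cells and 13 UMIs. Only 2 of these 12 cells were under an upper limit on genes per cell (mean plus 3 SD of the library). Their median depth was 33567 UMIs, against 8480 in the non-cycling WT cells of the gate. Whether they are doublets was not tested. Ikzf4 was called as well (-1.52, SE 0.528, adjusted p = 0.0436), but WT had 0 UMIs in cycling cells against 37, at least 11.6-fold lower when 3 UMIs are taken as the limit, and the fitted value depends on the small count added to such zeros. None of the 3 fits that could test Ikzf4 without an animal called it, with adjusted p of 0.117 to 0.122.

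**Figure D3:**
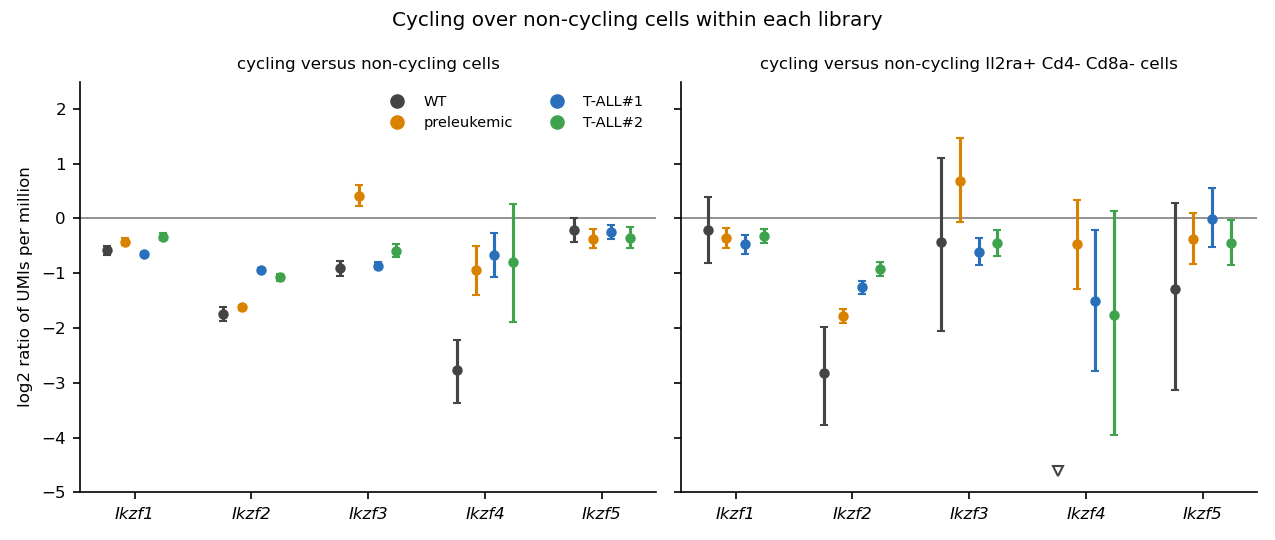
Log2 ratio of the level in cycling over non-cycling cells for each member and library, over all cells (left) and over Il2ra+ Cd4- Cd8a- cells (right), with bars for the 95% counting interval. All 4 libraries lie below 0 for Ikzf2 in both panels, the preleukemic point alone lies above 0 for Ikzf3 on the left, and the open triangle marks Ikzf4 in WT, with 0 UMIs in cycling cells.

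The partners and proposed targets of the family were read in the same fits, from lists chosen with earlier results known. Of 17 corepressor genes, 9 rose and 2 fell in cycling cells, with a list median of 0.32 against -0.08 over all genes on the log2 scale. Rbbp7 and Rbbp4, histone-binding subunits shared by NuRD and Sin3, rose by 1.49 and 1.01 (adjusted p = 0.000392 and 0.00120), and Chd3, a NuRD remodeller, fell by 1.58 (SE 0.187, adjusted p = 0.000921). Chd3 fell in 4 of 4 animals, as Ikzf2 did. Of the 5 cereblon ubiquitin ligase genes, whose complex degrades human Ikaros and Aiolos when bound by immunomodulatory drugs, 2 rose and 1 fell, and the one that fell was Crbn, the substrate receptor, by 0.69 (SE 0.113, adjusted p = 0.00272). Of 8 thymocyte genes bound by Ikaros, 4 fell and 0 rose, led by Bcl6, a transcriptional repressor that drives the follicular helper program, at -1.55 (adjusted p = 0.00210), and Satb1, a chromatin organizer of thymocytes, at -0.76 (adjusted p = 0.00442). Of 7 Notch target and receptor genes, 1 fell, which was Dtx1 at -0.80 (adjusted p = 0.00366), and of 10 strong T-cell receptor signal genes tested, 5 fell, with Tnfrsf4 at -1.49 (adjusted p = 0.00184). With 24.5% of all genes called higher and 29.8% lower, these counts are descriptions, and nothing particular to a list is read from them.

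Inside the Il2ra+ Cd4- Cd8a- gate, 4 corepressor genes rose and 2 fell of 16 tested, and 4 of 5 tested genes bound by Ikaros fell, with Bcl6 at -2.15 (adjusted p = 0.000471). Among the Notch genes Dtx1 and Hes1 fell by 0.92 and 0.67 (adjusted p = 0.00161 and 0.00833) while Nrarp, a feedback inhibitor of Notch, rose by 1.22 (adjusted p = 0.0125), so the list had no common direction. Of 7 tested signal genes 1 fell, and of 5 ligase genes 1 rose. The background of calls was 16.2% higher and 17% lower. The interaction with leukemia gave adjusted p of 0.330 for Ikzf2 and 0.261 for Ikzf3 there, with 0.302% of genes called.

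The step from the Il2ra+ Cd4- Cd8a- gate to the Cd4+ Cd8a+ gate was compared next. No member passed (background 2.67% of 10400 genes, with 1.51% higher and 1.16% lower), while 3 of 5 had an unadjusted p under 0.05 and DESeq2 called Ikzf3 and Ikzf4. Ikzf3 showed an unequal step between animals. Its level in the Il2ra+ Cd4- Cd8a- and Cd4+ Cd8a+ gates was 21.9 and 109.5 CPM in WT, 12.1 and 35.9 CPM in the preleukemic thymus, 59.5 and 74.2 CPM in T-ALL#2, and 96.4 and 124.1 CPM in T-ALL#1. The step was 5.01-fold and 2.98-fold upward in the WT and preleukemic animals and 1.29-fold and 1.25-fold in the leukemic animals. The common difference was 0.86 (SE 0.347, adjusted p = 0.180), and the interaction of leukemic against the other animals was -1.56 (SE 0.254, adjusted p = 0.0156), where 1.81% of genes were called. Leaving out any 1 of the 4 animals kept the direction, with adjusted p of 0.000190 to 0.0255, but each such fit leaves an arm of 1 animal, which is assumed to vary like the others. The interaction lost its call when mitochondrial UMIs were held under 5% (-0.99, adjusted p = 0.127) or very gene-rich cells were removed (-1.49, adjusted p = 0.0693). The 5 double-positive stage markers other than Cd4 and Cd8a, which set the gates, were higher in the Cd4+ Cd8a+ than in the Il2ra+ Cd4- Cd8a- gate of every library (3924 against 1682 CPM in WT, 780.2 against 448.9 CPM in T-ALL#2). The 7 DN3 markers other than Il2ra stood at 940.1 against 958.6 CPM in WT, 318.4 against 159.2 CPM in the preleukemic thymus, 419.8 against 280.5 CPM in T-ALL#2 and 1250.5 against 602.7 CPM in T-ALL#1. So they were higher in the Cd4+ Cd8a+ gate of the 3 transgenic libraries. Rag1 is on both marker lists. Over all WT cells it gave 474.6 of the 602.2 CPM of the 8 DN3 markers. The preleukemic thymus had 111.6 of 191.8 CPM, T-ALL#1 150.2 of 1031 CPM and T-ALL#2 26.3 of 503.5 CPM. In WT and the preleukemic thymus the DN3 sum therefore does not measure DN3-like makeup alone. The part of gate makeup in the Ikzf3 difference was not tested. This step did register Rag1, a recombinase gene among those bound by Ikaros (1 of 6 tested rose, by 1.72, adjusted p = 0.0258), and Cd5 (1 of 8 signal genes tested rose, by 1.03, adjusted p = 0.0447), while 0 of 17 corepressor, 0 of 5 ligase and 0 of 6 Notch genes passed. Genes that define a gate were left out of these lists.

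Ikzf1 differed by 0.46 (SE 0.143, adjusted p = 0.0950) and Ikzf4 differed by -1.97 (SE 0.468, adjusted p = 0.0571) at this step, and neither passed. Ikzf4 went from 47.6 to 5.79 CPM in WT and from 9.61 to 1.99 CPM in the preleukemic thymus. Ikzf2 was not called (0.09, SE 0.235, adjusted p = 0.850), and its animals disagreed, with the Cd4+ Cd8a+ gate 2.04-fold higher in T-ALL#2 (402.0 against 197.0 CPM) and 1.25-fold lower in WT (113.0 against 141.5 CPM).

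Between the Cd4+ Cd8a- and the Cd4+ Cd8a+ gate no member passed (background 0.0305% of 9836 genes, 3 genes in all), with 1 member at an unadjusted p under 0.05 and 0 called by DESeq2. Ikzf2 moved in opposite directions. It was higher in the Cd4+ Cd8a- gate of WT (185.6 against 113.0 CPM) and of the preleukemic thymus (593.4 against 454.9 CPM) and lower in that of T-ALL#2 (276.6 against 402.0 CPM) and T-ALL#1 (283.0 against 303.5 CPM), and each counting interval left out equality. The interaction was -0.91 (SE 0.219, adjusted p = 0.0572; background 3.7% called) and missed the threshold. Mature T-cell markers were higher in the Cd4+ Cd8a- than in the Cd4+ Cd8a+ gate in all 4 libraries, most in WT (1025 against 235.9 CPM) and least in T-ALL#2 (341.5 against 270.8 CPM). The preleukemic side rests on 46 cells. No gene of the 5 lists passed.

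Cells with a UMI of Cd69, an early marker of T-cell receptor signalling, were set against the other cells. Of the members, 0 passed (background 2.84% of 11532 genes, with 1.96% higher and 0.876% lower), 1 had an unadjusted p under 0.05, and DESeq2 called Ikzf1. Ikzf1 was higher in Cd69-detected cells of 4 of 4 animals, at 306.4 against 250.2 CPM in WT, 260.9 against 217.1 CPM in the preleukemic thymus, 225.4 against 185.6 CPM in T-ALL#2 and 262.1 against 248.4 CPM in T-ALL#1 (0.23, SE 0.0565, adjusted p = 0.0618). Ikzf2 was higher in 3 of 4 animals, most in WT with 254.5 against 151.7 CPM (0.32, SE 0.133, adjusted p = 0.267). The interaction with leukemia, with 0.0694% of genes called, had adjusted p of 0.855 or more for every member. The comparison did register signal genes, with 3 of 10 tested higher, among them Pdcd1 (1.12, adjusted p = 0.00155) and Egr2 (3.02, adjusted p = 0.0169), and 5 of 8 genes bound by Ikaros lower, led by Rag2 (-1.23, adjusted p = 0.00232). Of the Notch genes 1 of 7 fell, Notch1, and 0 of 17 corepressor and 0 of 5 ligase genes passed.

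Cells with a UMI of S1pr1, the receptor that lets mature thymocytes leave, had more Ikzf2 in all 4 animals. The level in S1pr1-detected and other cells was 284.0 and 162.7 CPM in WT, 934.4 and 816.0 CPM in the preleukemic thymus, 567.0 and 262.5 CPM in T-ALL#2, and 836.7 and 331.7 CPM in T-ALL#1. The difference was 0.86 on the log2 scale (SE 0.168, adjusted p = 0.00423; background 8.75% of 11411 genes called higher, 11.4% lower and 20.1% in either direction), and the interaction with leukemia was 0.60 (SE 0.251, adjusted p = 0.423; 0.543% of genes called). In the preleukemic thymus the thinned share of cells with an Ikzf2 UMI went the other way, at 65.9% against 73.2%, so no direction is read for its share of cells. Only 6.56% to 8.30% of S1pr1-detected cells were cycling, against 15.8% to 40.3% of the others, and in non-cycling cells alone the difference was 0.52 (adjusted p = 0.0837). It was also lost without WT (0.80, adjusted p = 0.262). Regulatory, NKT and innate-like, and mature T-cell markers were higher in S1pr1-detected cells of all 4 libraries. The 4 regulatory T-cell markers summed to 240.3 against 84.9 CPM in WT, 105.3 against 45.4 CPM in the preleukemic thymus, 33.4 against 24.0 CPM in T-ALL#2 and 110.3 against 24.7 CPM in T-ALL#1. The 5 NKT and innate-like markers stood at 166.7 against 63.6 CPM in WT and 15.3 against 5.07 CPM in T-ALL#2, and the 4 mature T-cell markers other than S1pr1 at 1283 against 345.5 CPM in WT and 433.3 against 220.0 CPM in T-ALL#2. The 5 gamma-delta markers were lower in S1pr1-detected cells of WT (93.4 against 294.5 CPM) and the preleukemic thymus (1313 against 1721 CPM). They were higher in those of T-ALL#2 (419.3 against 272.2 CPM) and T-ALL#1 (357.3 against 90.9 CPM). As in the cycling comparison, Il2rb is shared by the regulatory and the NKT and innate-like list, and Foxp3 had few UMIs in the leukemias. The part of these marker lists in the Ikzf2 difference was not tested.

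**Figure D4:**
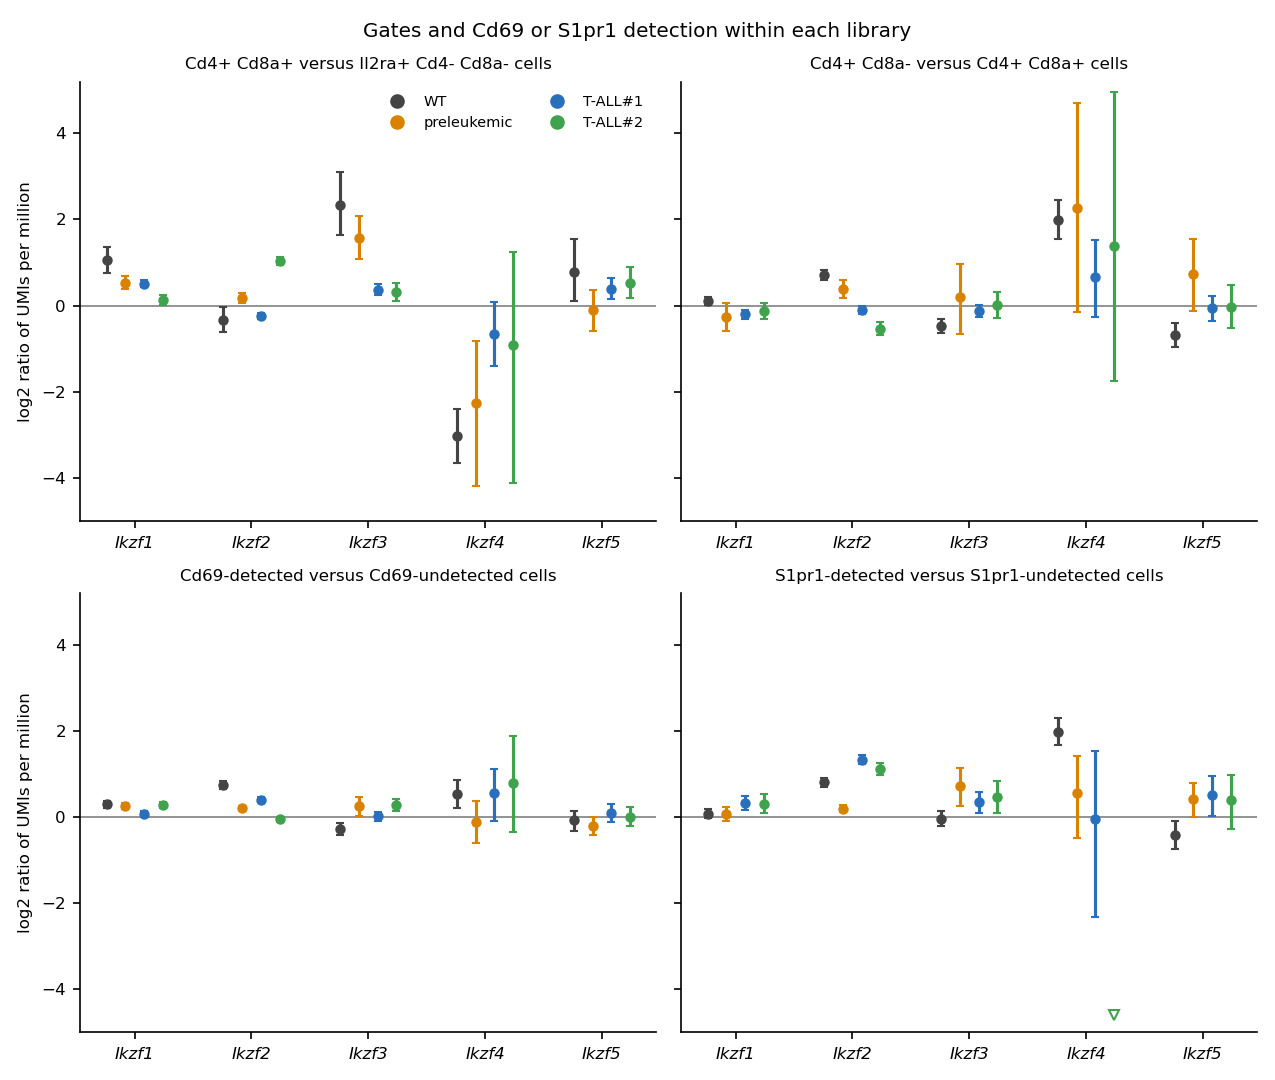
Log2 ratio of the level of each member within each library, for the Cd4+ Cd8a+ over the Il2ra+ Cd4- Cd8a- gate, the Cd4+ Cd8a- over the Cd4+ Cd8a+ gate, and cells with over cells without a UMI of Cd69 or of S1pr1, with bars for the 95% counting interval. For Ikzf3 in the first panel the WT and preleukemic points (2.32 and 1.57) stand above both leukemic points (0.36 and 0.32), all 4 points lie above 0 for Ikzf2 in the last panel, and the open triangle marks Ikzf4 in T-ALL#2, with 0 UMIs in S1pr1-detected cells.

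Ikzf3 and Ikzf4 differed by 0.35 (SE 0.125, adjusted p = 0.0618) and 1.20 (SE 0.421, adjusted p = 0.0669) in S1pr1-detected cells and did not pass. For Ikzf4 the difference was largest in WT (40.8 against 10.4 CPM), and without WT it was 0.13 (adjusted p = 0.914), while it passed without T-ALL#1 (0.0263) and without T-ALL#2 (0.0488). Ikzf3 passed without WT (0.42, adjusted p = 0.0325). For Ikzf4 in T-ALL#2, the level of the other cells (0.957 CPM) was under the 4.18 CPM that 3 UMIs would give in the S1pr1-detected cells, and no ratio is given. Ikzf1 and Ikzf5 had adjusted p of 0.227 and 0.442. Among the corepressor genes Chd3 rose by 1.38 (adjusted p = 0.000474) and 4 of 17 fell, 2 of 5 ligase genes and 2 of 7 Notch genes fell, 3 of 10 signal genes rose and 1 fell, and Rag2 was the 1 of 8 genes bound by Ikaros that fell (-1.94, adjusted p = 0.000316). With 8.75% of all genes called higher, 11.4% lower and 20.1% in either direction, these list counts are descriptions as well.

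Over the 20 sums of 5 gates in 4 libraries, the genes whose log2 level was most like that of each member were found among 5779 genes with a mean of at least 20 CPM. These correlations are descriptions, since gates of 1 library share its depth and its animal. Tulp4, Map4k4 and Tmod3 were closest to Ikzf1 (Pearson r = 0.906, 0.891 and 0.882). AB124611, Il12rb2, a chain of the interleukin-12 receptor, and Sgk1, a kinase, were closest to Ikzf2 (r = 0.849, 0.828 and 0.808). Rgs10, Pitpnm2 and Slco3a1 were closest to Ikzf3 (r = 0.884, 0.882 and 0.857), and Arcn1, Riok3 and Cdkn2aip to Ikzf5 (r = 0.781, 0.760 and 0.758). Between members, r was 0.52 for Ikzf1 with Ikzf3 and -0.40 for Ikzf2 with Ikzf3, and Ikzf4, with a mean of 8.40 CPM, was under the limit.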

How the data were processed

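The authors deposited raw counts of UMIs per gene and barcode, aligned to mm10 per the labels and written, per the file headers, by Cell Ranger 3.0.2 (WT, preleukemic and T-ALL#1, called cells) or 4 (T-ALL#2, all 1791965 barcodes). T-ALL#2 barcodes with at least 3416 UMIs, 0.1 of the 99th percentile of its 10000 largest, were taken as cells. The 3′ chemistry of each library was not given in the sources used here. No doublet caller was run. Counts were summed per library and class and tested with edgeR 4.0.16 in R 4.3.3 (robust quasi-likelihood, TMM, filterByExpr, library as block, adjusted p under 0.05), with DESeq2 1.42.0 as an alternative. Both sums of a comparison come from the same animal, which is the pairing. P-values measure how the within-animal difference varied over 4 animals, with the 3 groups pooled, and not how levels varied between animals. On simulated sums, 39 to 78% of 2-fold and 93 to 98% of 4-fold changes were recovered. Of 31053 identifiers, 30934 were in GENCODE M21. Members and lists were chosen with earlier results of these data known. List genes named are up to 3 per list with the smallest adjusted p. Alternatives changed the filters, scaling, gates, test or animals.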

Additional observations from a re-analysis of the deposited data

Results flagged for a closer look

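The step of Ikzf3 from the Il2ra+ Cd4- Cd8a- to the Cd4+ Cd8a+ gate differed between leukemic and other animals by -1.56 on the log2 scale (edgeR quasi-likelihood interaction, adjusted p = 0.0156).

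The following values had opposite signs in every sample of 2 groups, and the difference between those groups was not tested. For cycling over non-cycling cells, Ikzf3 had a log2 ratio of 0.42 in the preleukemic thymus against -0.91 in WT, -0.87 in T-ALL#1 and -0.59 in T-ALL#2. Ikzf2 had a log2 ratio of the Cd4+ Cd8a+ over the Il2ra+ Cd4- Cd8a- gate of -0.33 in WT and 0.17 in the preleukemic thymus. For the Cd4+ Cd8a- over the Cd4+ Cd8a+ gate, the Ikzf2 ratio was 0.72 in WT and 0.38 in the preleukemic thymus, against -0.54 in T-ALL#2 and -0.10 in T-ALL#1; here leukemic against all other animals was tested, with an adjusted p of 0.0572. For Cd69-detected over other cells, the Ikzf3 ratio was -0.27 in WT and 0.24 in the preleukemic thymus. For S1pr1-detected over other cells, the Ikzf5 ratio was -0.41 in WT and 0.42 in the preleukemic thymus. WT and the preleukemic group had 1 animal each.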

How the results depend on the processing

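Without the animal block, calls fell from 6325 to 1212 for cycling cells, from 3081 to 629 for cycling Il2ra+ Cd4- Cd8a- cells, and to 0 for the other 4 comparisons (edgeR), where 40 to 1334 genes had an unadjusted p under 0.05. Holding mitochondrial UMIs under 5% gave 2022 calls for cycling Il2ra+ Cd4- Cd8a- cells, 6 for the Cd4+ Cd8a- against the Cd4+ Cd8a+ gate and 173 for Cd69. With an upper limit on genes per cell, the step between the Il2ra+ Cd4- Cd8a- and Cd4+ Cd8a+ gates had 113 calls and its interaction 16. In non-cycling cells the counts were 695 for that step, 26 for its interaction, 108 for the Cd4+ Cd8a- gate, 157 for Cd69 and 575 for S1pr1. On gates read from thinned cells they were 1505, 466, 11 and, for Cd69, 1515. With every gene of at least 1 UMI they were 1069, 96 and 781 for the step, the Cd4+ Cd8a- gate and Cd69, and 4648 and 6823 genes passed 2-fold for the preleukemic thymus and T-ALL#1 against WT. DESeq2 called 1159 and 141 genes for the step and the Cd4+ Cd8a- gate. Leaving out an animal gave 1354 to 3686 calls for cycling Il2ra+ Cd4- Cd8a- cells, 0 to 414 for the step, 0 to 61 for the Cd4+ Cd8a- gate, 21 to 473 for Cd69 and 176 to 1112 for the interaction, whose alternatives were chosen after seeing the data. The counts of 0 had 2398 and 877 genes at an unadjusted p under 0.05. The lowest counts for the step, the Cd4+ Cd8a- gate, Cd69 and cycling Il2ra+ Cd4- Cd8a- cells were those without the preleukemic animal. The cause was not tested.

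Members whose direction turned were not called in the main comparison. At the step, Ikzf2 went from 0.09 to -0.0439 with the upper gene limit, -0.13 in non-cycling cells, -0.23 on thinned gates and, leaving out animals, -0.20 to 0.24. In the Cd4+ Cd8a- gate, holding mitochondrial UMIs under 5% gave 0.12 for Ikzf1, 0.11 for Ikzf3 and 0.13 for Ikzf5, and leaving out animals gave -0.11 to 0.0282, -0.0251 to 0.43, -0.0969 to 0.0408 and -0.16 to 0.14 for Ikzf1, Ikzf2, Ikzf3 and Ikzf5. Ikzf5 there was 0.0636 with no replicate block, 0.00506 with RLE factors and 0.0254 with DESeq2. For Cd69, leaving out animals gave -0.0282 to 0.15 for Ikzf3 and -0.0944 to 0.0304 for Ikzf5. The Ikzf2 difference in cycling cells was called in all 10 settings that kept the block and that within Il2ra+ Cd4- Cd8a- cells in all 11. Without the block no member was called in cycling cells. The small Ikzf4 counts, with 34 UMIs in T-ALL#2, limit what its ratios can show.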
